A study of Mus musculus with 6 samples.

Results

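The clustered protocadherins are a family of cell-surface adhesion proteins of the cadherin superfamily, encoded in 3 tandem gene clusters called alpha, beta and gamma. Their transcripts were taken here as every array probe, control probes aside, whose gene name was that of a member of these clusters. This gave 33 of the 27376 gene names on the array, read by 45 of its 41174 probes. All 45 lie on chromosome 18 between positions 37114742 and 38001435 (mm9), with 6 probes in the alpha cluster, 28 in the beta cluster and 11 in the gamma cluster. The members were chosen by name, and the family was picked with earlier results of these arrays known, so the differences between genotypes below are a description of the members.

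Total RNA from whole testes of 3 Prss37 knockout mice and 3 wild-type mice, all males on a C57BL/6 background and 6 to 8 weeks old, had been labelled with Cy3 and hybridised to one single-colour Agilent mouse array per animal. The study asked which genes differ in the testis when Prss37, a testis gene of the trypsin family of serine proteases, is missing. The labels do not say how the Prss37 allele was made or which exons it lacks. Prss55 stands in the free description of the knockout samples, whereas title and source name Prss37, and the groups were taken from the titles.

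Alpha and gamma genes each have a variable first exon of their own, which encodes the extracellular cadherin repeats, the transmembrane segment and part of the cytoplasmic tail. This exon is spliced to constant exons shared by every gene of its cluster, whereas each beta gene is a single exon with no constant part. The proteins bind their own kind on opposing cells and are known above all from neurons, where each cell switches on a few promoters of the clusters, with the help of the DNA-binding protein CTCF and cohesin, and where the resulting mix lets sister dendrites avoid each other. A probe in a variable exon or in a beta gene is therefore specific to that gene unless close relatives share its sequence, and a probe in a constant exon reads the whole cluster.

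The position of the probes decided which transcripts each one reads. Among the 6 alpha probes, those of Pcdha4, Pcdha6 and Pcdha9 lay in the variable exon of that gene. The other 3 alpha probes carried the name Pcdhac2, a C-type alpha gene at the end of the cluster, but the array's annotation assigned each of them to transcripts of 4 alpha genes, as a probe in constant exons would be. The first of these Pcdhac2 probes ran from position 37315820 to position 37318930, across an intron of 3051 bases.

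In the gamma cluster the probes of Pcdhga1, Pcdhga4 (2 probes), Pcdhga7 and Pcdhgb4 and the first probe of Pcdhga9 were assigned to a single gene each, as probes in variable exons would be. The other 3 probes named Pcdhga9 were assigned to transcripts of 3 or 4 gamma genes and lay at the shared end of the cluster. Probes 3 and 4 of Pcdhga9 overlapped by 40 bases and so are not separate measurements of the shared exons. A probe named Pcdha4-g, at positions 37984662 to 37984721, lay within the gamma cluster despite its alpha name, and was counted with gamma by position. Its current gene symbol was Gm37013, which was also listed for the Pcdha4 probe and for the second probe of Pcdhga9. The Pcdha4 probe was thus not assigned to Pcdha4 alone. Neither the Pcdha4-g probe nor that of Pcdhga12 had a RefSeq transcript assigned, so their exons were not placed. The beta probe of Pcdhb18 was assigned to Pcdhb17, Pcdhb18 and Pcdhb20, and so cannot separate these 3 genes.

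Across the 6 arrays, between 69.2% and 71.4% of the spots other than controls were well above background and 0 were saturated. The Prss37 probe, on chromosome 6 from 40464853 to 40464912, had a signal of 70993 ± 3155 in knockout and 116128 ± 8265 in wild-type testes (SD, n = 3 each), a log2 difference of -0.71 with a limma adjusted p of 0.030, or 0.053 once slide was a block. The Prss55 probe differed by -0.16 on the log2 scale, with an adjusted p of 0.37. Signals here and below are processed signals scaled so that the 75th percentile of every array stood at 1617. Log2 differences are knockout minus wild type. The arrays came on 2 slides, with both genotypes on each: replicates 1 and 2 on slide 1, and replicate 3 on slide 2. All 10 listed spermatocyte markers and the 9 spermatid markers on the array were well above background on every array of a genotype.

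Transcripts of all 3 clusters were detected in testis, but unevenly. A probe was counted as detected on an array when the scanner software called it well above background. On all 6 arrays 19 of the 45 probes (42.2%) were detected, against 66.6% of all probes of the array. A further 10 were detected on 1 to 5 arrays and 16 (35.6%) on none, against 24.2% of all probes on none. Per array, 27, 23 and 22 of the 45 were detected in knockout testes and 23, 23 and 25 in wild-type testes, so the 2 genotypes overlapped.

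**Figure D1:**
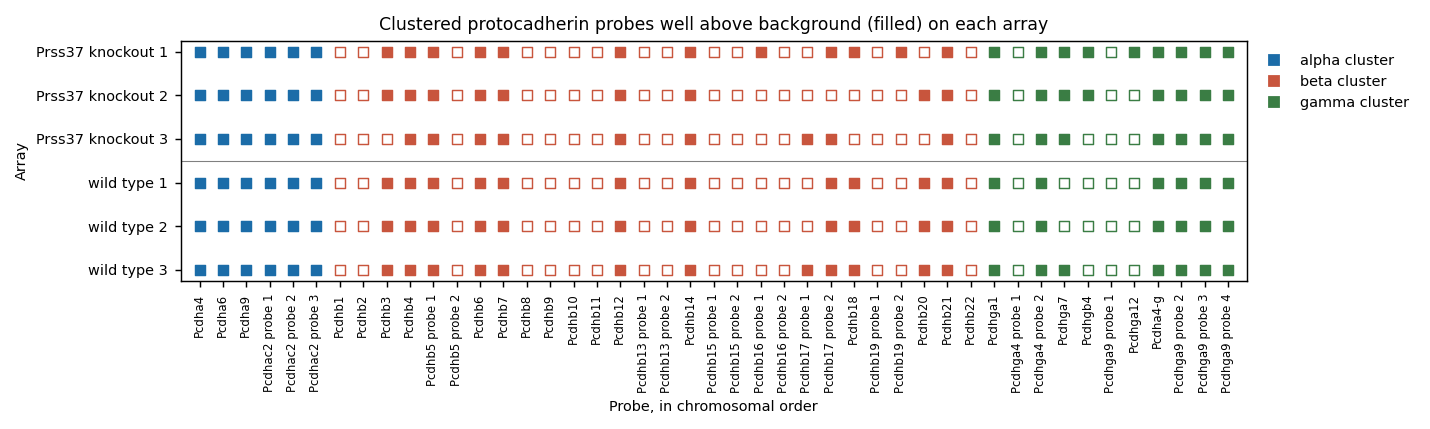
Each column is 1 of the 45 clustered protocadherin probes in chromosomal order and each row is 1 array, with the 3 Prss37 knockout arrays above the 3 wild-type arrays. A filled square marks a probe well above background on that array. All 6 alpha probes are filled on every array, whereas 14 of the 28 beta probes are open on every array.

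All 6 alpha probes were detected on all 6 arrays. In the beta cluster, which encodes proteins without the shared cytoplasmic end, 7 of 28 probes (25.0%) were detected on all 6 arrays and 14 on none. These 7 belonged to Pcdhb4, Pcdhb5, Pcdhb6, Pcdhb7, Pcdhb12, Pcdhb14 and Pcdhb21. Of the 22 beta genes on the array, 9 had no probe detected on any array, namely Pcdhb1, Pcdhb2, Pcdhb8, Pcdhb9, Pcdhb10, Pcdhb11, Pcdhb13, Pcdhb15 and Pcdhb22. In the gamma cluster 6 of 11 probes (54.5%) were detected on all 6 arrays. All 6 probes of the shared alpha and gamma exons were detected on every array, whereas 2 of the 6 probes of gamma variable exons were, those of Pcdhga1 and the second probe of Pcdhga4.

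Probes of the same gene did not always give the same answer. Of the 9 genes with several probes, Pcdhb5 and Pcdhga4 each had 1 probe detected on all 6 arrays and 1 on none. For Pcdhga9 the 3 shared-exon probes were detected on all 6 arrays and the probe of its own variable exon on none, so the signal under the name Pcdhga9 came from the shared exons. The 16 probes detected on no array had signals between 5.84 and 29.6. The call of well above background is stricter than the software's looser detection flag, so absence of these transcripts was not shown.

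A few probes were detected on some arrays of 1 genotype only. Pcdhgb4, a gamma gene of the B subfamily, had signals of 45.3, 46.1 and 32.4 in knockout and 36.9, 29.4 and 24.7 in wild-type testes, and was detected on 2 knockout arrays and on no wild-type array. Pcdhga12 had 49.1, 28.4 and 27.7 in knockout and 23.2, 18.7 and 6.63 in wild-type testes. The first probe of Pcdhb16 had 63.7 on knockout replicate 1 and at most 20.4 on the other arrays. Pcdhga12, Pcdhb16 and the second probe of Pcdhb19 were each detected on knockout replicate 1 alone. That array was also the only one to detect 0.867% of all array probes, against 0.357% to 0.794% for each of the other arrays. The part of that array in these detections was not tested.

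A probe was tested between genotypes when it was detected on all 3 arrays of at least 1 genotype, which held for 24 of the 45 probes. The 21 others, 17 in the beta and 4 in the gamma cluster, were not tested and had signals between 5.84 and 63.7. Of the 24 tested, 5 were not detected on all 6 arrays, namely Pcdhb3, the second probe of Pcdhb17, Pcdhb18, Pcdhb20 and Pcdhga7. Pcdhb3, Pcdhb18 and Pcdhb20 passed through wild type and Pcdhga7 through knockout, in each case the genotype with the higher mean. The filter favours that direction, so the signs of these probes are not independent of it. The Pcdhb17 probe passed through wild type, although its mean was higher in knockout testes. Counts are therefore also given for the 19 probes detected on all 6 arrays.

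Between genotypes the tested probes divided evenly, with 12 above and 12 below 0 and a median log2 difference of 0.0020, against -0.0024 over the 28306 tested probes of the array. Pcdhb12, a beta protocadherin, rose 1.60-fold in knockout testes and was the only member called. With limma and Benjamini-Hochberg adjustment over all tested probes, 1 of 24 passed an adjusted p of 0.05 upwards and 0 downwards, against 1.04% of all tested probes (0.466% called higher and 0.569% called lower). At an unadjusted p under 0.05 the members counted 5 higher and 7 lower, against 22.5% of all tested probes (11.1% higher, 11.4% lower). The 2 genotypes did not overlap for 13 members, 5 higher and 8 lower in knockout testes, against 30.4% of all tested probes (14.9% higher, 15.5% lower). Among the 19 members detected on all 6 arrays, 10 were above and 9 below 0, with a median of 0.03. Of these 19, 5 were higher and 4 lower at an unadjusted p under 0.05, against 11.1% and 11.2% of all probes detected on all 6 arrays. The genotypes did not overlap for 5 higher and 6 lower of the 19, against 15% and 15.5% of all probes detected on all 6 arrays. In whole testes, fewer cells of a type and less RNA per cell cannot be told apart.

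**Figure D2:**
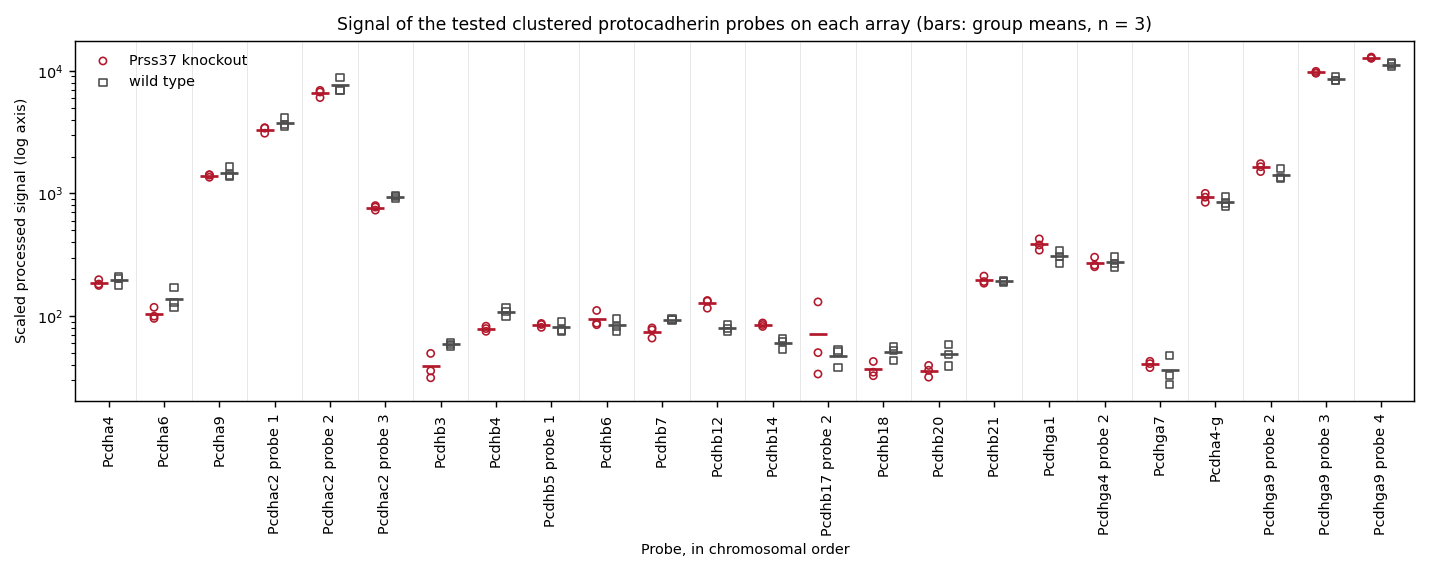
Scaled processed signal, on a log axis, of the 24 tested probes in chromosomal order, with 3 Prss37 knockout arrays (circles) left of 3 wild-type arrays (squares) for each probe and bars at the group means. The Pcdhb12 circles, from 116 to 134, lie above its squares, from 74.5 to 85.2. Signals of different probes are not comparable with each other.

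Pcdhb12 had signals of 132, 134 and 116 in knockout testes, against 74.5, 85.2 and 78.8 in wild-type testes. All 3 knockout testes were above all 3 wild-type testes, and the lowest knockout value was well clear of the highest wild-type value. The means were 127 ± 9.91 in knockout and 79.5 ± 5.39 in wild-type testes (SD, n = 3 each), a log2 difference of 0.68 (SE 0.08) with a limma adjusted p of 0.039. Its probe, at positions 37597710 to 37597769, was detected on all 6 arrays and is the only one of this gene.

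The direction of Pcdhb12 held within both slides, at 0.74 on slide 1 and 0.56 on slide 2, but its call did not hold in every setting. The adjusted p was 0.061 with the slide as a block, 0.135 without the filter on dim probes and 0.050, just above the threshold, with the filter set at 2 arrays of a genotype. Without knockout replicate 1, 2 or 3 the adjusted p of Pcdhb12 was 0.125, 0.162 and 0.118, and without wild-type replicate 1 or 3 it was 0.124 and 0.054. With normexp background correction, which compresses dim signals, its log2 difference was 0.41, with an adjusted p of 0.026. Over 21 alternatives, which share the same arrays, Pcdhb12 was called in 11, with limma adjusted p from 0.021 to 0.162.

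Pcdhb14, a neighbouring beta gene at positions 37610021 to 37610080, showed the next highest difference. Its signals were 87.8, 82.2 and 85.3 in knockout testes, against 53.7, 62.4 and 65.2 in wild-type testes. The genotypes did not overlap, and the 3 knockout values lay close together. The log2 difference was 0.50 (SE 0.08), with 0.55 on slide 1 and 0.39 on slide 2, and the adjusted p of 0.052 missed the threshold. Pcdhb13, which lies between Pcdhb12 and Pcdhb14, had neither of its probes detected on any array, so its difference was not tested.

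Other beta genes lay on the opposite side. Pcdhb4 had signals of 82.6, 79.0 and 75.1 in knockout testes, against 116, 98.6 and 109 in wild-type testes. All knockout values were below all wild-type values, with a log2 difference of -0.45 (SE 0.07) and an adjusted p of 0.053. On slide 1 the Pcdhb4 difference was -0.41 and on slide 2 it was -0.54. Its neighbour Pcdhb3 had 49.6, 35.7 and 31.4 in knockout testes, against 59.0, 60.8 and 56.9 in wild-type testes, also with no overlap. The log2 difference of Pcdhb3 was the most negative of the tested members at -0.63 (SE 0.16), with an adjusted p of 0.10, and the probe was not detected on 1 knockout array.

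With normexp, run with a constant of 50 added to every signal, the differences of these dim beta probes were smaller. For Pcdhb14 the log2 difference was 0.23, and for Pcdhb4 it was -0.22, with adjusted p of 0.12 and 0.14. The added constant by itself shrinks log2 differences of signals this dim, so smaller sizes were partly set in advance. The signs of these differences were the same.

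Pcdhb18, whose probe also reads Pcdhb17 and Pcdhb20, had 42.6, 32.6 and 34.8 in knockout testes, against 43.4, 56.5 and 52.4 in wild-type testes. The groups came close without overlapping, with a log2 difference of -0.47 and an adjusted p of 0.12. Pcdhb20 had 31.7, 39.5 and 36.1 in knockout testes, against 48.6, 59.0 and 39.2 in wild-type testes, where one wild-type value fell among the knockout values. Its log2 difference was -0.44 (adjusted p 0.19), and both Pcdhb18 and Pcdhb20 were detected on 1 knockout array and on 3 wild-type arrays.

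The second probe of Pcdhb17 shows how 1 array can set a value. Its signals were 130, 33.7 and 50.3 in knockout testes, against 50.8, 52.8 and 38.0 in wild-type testes. Knockout replicate 1 alone stood high, and the other knockout values overlapped with wild type. The log2 difference of 0.37 had an SE of 0.49, and without knockout replicate 1 it was -0.18.

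Of the remaining tested beta probes, that of Pcdhb7 differed by -0.33 on the log2 scale without overlap between genotypes (adjusted p 0.083). The probes of Pcdhb5, Pcdhb6 and Pcdhb21 lay between 0.03 and 0.16, and the genotypes overlapped. Over the 7 beta probes detected on all 6 arrays, 5 were above and 2 below 0, with a median of 0.07, against -0.0018 over all probes detected on all 6 arrays. The 4 other tested beta probes, which passed through wild type alone, were 1 above and 3 below 0.

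**Figure D3:**
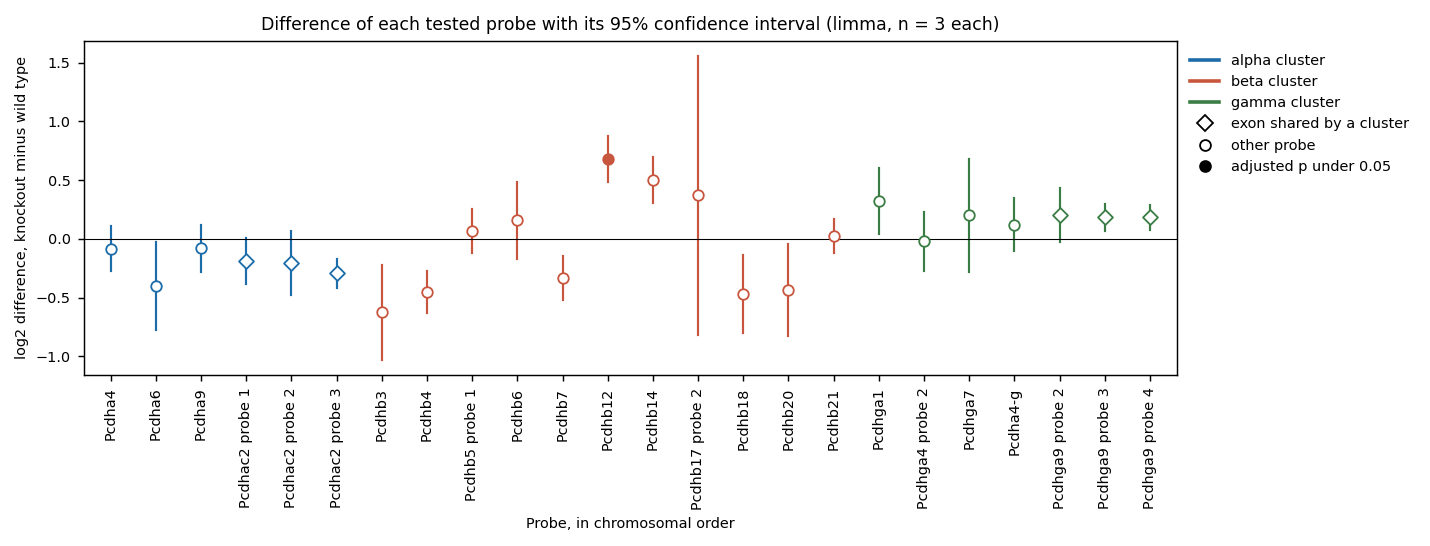
Log2 difference, knockout minus wild type, of the 24 tested probes in chromosomal order, with 95% confidence intervals from limma (n = 3 each). Diamonds are probes in exons shared by a cluster, and the filled point is the probe with an adjusted p under 0.05 (Pcdhb12, 0.68). All 6 alpha points lie below 0, from -0.40 to -0.08, and the 3 gamma diamonds lie between 0.18 and 0.20.

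All 6 alpha probes lay below 0 in knockout testes, with a median log2 difference of -0.20 and a range of -0.40 to -0.08. For 4 of them the genotypes did not overlap, against 15.5% of all tested probes that were lower without overlap. Of these 4, 3 were the shared-exon probes, which were assigned to transcripts of the same genes and so do not count as 3 genes. No alpha probe was called by limma, and 2 had an unadjusted p under 0.05, against 11.4% of all tested probes in that direction. Pcdhac2 probe 3, which reads the common end of the alpha transcripts at positions 37347017 to 37347076, had signals of 731, 773 and 796 in knockout testes, against 962, 943 and 913 in wild-type testes. All knockout values lay below all wild-type values. Its log2 difference was -0.29 (SE 0.05), with an adjusted p of 0.053 and with -0.34 on slide 1 and -0.20 on slide 2.

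The other shared alpha probes gave smaller differences with wider errors. The first had 3097, 3407 and 3438 in knockout testes, against 3645, 3514 and 4174 in wild-type testes. The second had 6048, 6717 and 6926 in knockout testes, against 6975, 6952 and 8877 in wild-type testes. For both, the knockout values stayed below the wild-type values by a narrow margin, wild-type replicate 3 was the highest, and the log2 differences were -0.19 (adjusted p 0.24) and -0.20 (adjusted p 0.34).

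Among the alpha variable exons, that of Pcdha6 had 95.7, 118 and 99.7 in knockout testes, against 129, 170 and 118 in wild-type testes. The highest knockout value and the lowest wild-type value were nearly equal, and the log2 difference was -0.40 (SE 0.15, adjusted p 0.20). Pcdha4 and Pcdha9 each differed by -0.08, with overlapping genotypes. For Pcdha9 the value rested on wild-type replicate 3, without which it was 0.0067.

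Gamma probes lay mostly on the other side of 0, with 5 of the 6 detected on all 6 arrays above it and a median log2 difference of 0.18. None was called by limma, and 3 had an unadjusted p under 0.05, against 11.1% of all tested probes in that direction. Of these 3, 2 were the overlapping probes 3 and 4 of Pcdhga9, which are not separate measurements. Probe 4 of Pcdhga9, in the shared exons at positions 38001376 to 38001435, had signals of 12674, 12697 and 12937 in knockout testes, against 10818, 11569 and 11382 in wild-type testes. The knockout values were close together and all above the wild-type values. The log2 difference was 0.18 (SE 0.04), at 0.18 on both slides, with an adjusted p of 0.088.

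The overlapping probe 3 of Pcdhga9 had 9903, 9594 and 9587 in knockout testes, against 8311, 8934 and 8391 in wild-type testes, again without overlap. Its log2 difference was 0.18 (SE 0.05, adjusted p 0.097). The second probe of Pcdhga9, elsewhere in the shared exons, had 1507, 1750 and 1651 in knockout testes, against 1354, 1322 and 1593 in wild-type testes. Wild-type replicate 3 lay among the knockout values, and the log2 difference was 0.20 (SE 0.09, adjusted p 0.26).

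Of the gamma variable exons, Pcdhga1, the first gene of the cluster, had 380, 345 and 426 in knockout testes, against 344, 307 and 269 in wild-type testes. The lowest knockout and the highest wild-type value were almost the same, and the log2 difference was 0.32 (SE 0.12, adjusted p 0.18). It was 0.15 on slide 1 and 0.66 on slide 2. Pcdhga7 differed by 0.20 with an SE of 0.20, the second probe of Pcdhga4 by -0.02 and the Pcdha4-g probe by 0.12, all with overlapping genotypes.

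Within slides, 19 of the 24 tested probes had the same sign on slide 1 and slide 2. The 5 that did not were the tested probes of Pcdhb5, Pcdhb6, Pcdhb21, Pcdhga7 and Pcdha4-g, whose genotypes overlapped. With the slide as a block, no member reached an adjusted p of 0.05.

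**Figure D4:**
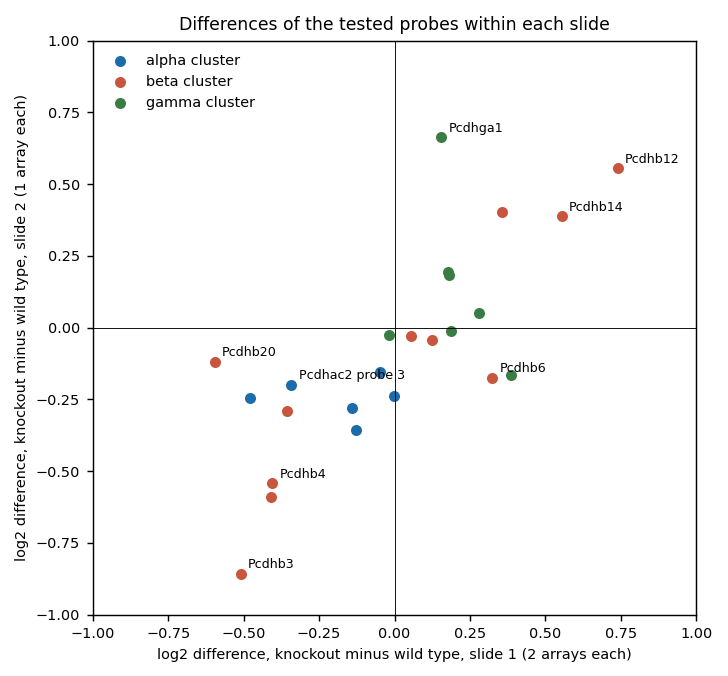
Log2 difference, knockout minus wild type, of the 24 tested probes on slide 2 (1 array of each genotype) against slide 1 (2 arrays of each genotype). Pcdhb12 lies at 0.74 on slide 1 and 0.56 on slide 2, Pcdhb3 at -0.51 and -0.86, and 19 of the 24 points share a sign on both slides.

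Because these genes are best known from nerve cells, a list of nerve and Schwann cell markers was read beside them. Of its 14 genes, 9 were tested, 6 of them below 0, and their median log2 difference was -0.17. The summed signal of these 9 was 6507 to 6636 in knockout and 7461 to 7616 in wild-type testes, so it did not overlap. This sum follows the brightest markers, and Tubb3, the brightest, had means of 2482 in knockout and 3068 in wild-type testes. The 3 markers above 0 were S100b, Sox10 and Mbp, with log2 differences of 0.0055, 0.04 and 0.06 and overlapping genotypes. Tubb3, a tubulin listed here as a nerve marker, was called lower (log2 difference -0.31, limma adjusted p 0.047, or 0.074 once slide was a block). Whether its signal came from nerve cells was not tested. Nefm and Th were detected on no array. The part of these markers in the alpha differences was not tested.

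The summed markers of some other cell types also differed between genotypes without overlap. All 10 macrophage markers lay above 0, with a summed signal of 9558 to 10362 in knockout and 8263 to 8559 in wild-type testes, and none was called. Sums were 193546 to 193894 in knockout and 176157 to 184871 in wild-type testes for 11 Sertoli cell markers, with none called. These sums follow the brightest markers, and 7 of the 11 lay above and 4 below 0, with a median log2 difference of 0.02. For 7 spermatogonia markers the sums were 23651 to 24023 in knockout and 26217 to 29589 in wild-type testes, again with none called. Of these 7, 3 lay above and 4 below 0, with a median of -0.03, and Stra8 and Uchl1 made up most of the gap between the sums. For 5 adipocyte markers, with Lep detected on no array, the sums were 10430 to 10542 in knockout and 10743 to 12498 in wild-type testes. Of these 5, 1 lay above and 4 below 0, with a median of -0.16. The 1 above 0 was Adipoq (0.28, limma adjusted p 0.48), with means of 4581 in knockout and 3885 in wild-type testes. Its genotypes barely missed overlapping, with a lowest knockout value of 4512 and a highest wild-type value of 4500. The Adipoq difference was 0.04 on slide 1 and 0.76 on slide 2, where wild-type replicate 3 stood at 2672. The lower sum followed Cidea, with means of 4749 and 6361. Cidea of this list was called lower (-0.42, adjusted p 0.048, or 0.074 once slide was a block). For the other marker lists the sums overlapped, though Ms4a1 of the lymphocyte list (0.59, adjusted p 0.039) and Alas2 of the erythroid list (0.53, adjusted p 0.043) were called higher. These calls of Ms4a1 and Alas2 were also lost once slide was a block, at 0.068 and 0.074. The part of any of these lists in the protocadherin values was not tested.

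None of the listed genes around and between the clusters was called. All 20 listed neighbours were tested, 11 above and 9 below 0, with a median log2 difference of 0.0069. Of these, the smallest p belonged to Hars2, a mitochondrial histidyl-tRNA synthetase (log2 difference 0.31, adjusted p 0.16), and to Slc25a2, a mitochondrial carrier of ornithine that lies between the beta and gamma clusters (0.19, adjusted p 0.16). A transcript within the alpha cluster, C130024J02Rik, was singled out after its values were seen. It had lower values in all 3 knockout testes than in the wild-type testes, with a log2 difference of -0.51 that missed the threshold at a limma adjusted p of 0.052. Gm10544, another transcript within the alpha cluster, lay on the other side of 0 at 0.14, with overlapping genotypes (adjusted p 0.54).

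The relatives outside the clusters were read from fixed lists. Of 12 non-clustered protocadherins 9 were tested, 3 above and 6 below 0. Pcdh8, known as an activity-regulated protocadherin of synapses, was called lower, with signals of 126, 141 and 120 in knockout testes, against 208, 191 and 187 in wild-type testes. The Pcdh8 groups stood well apart, with a log2 difference of -0.60 (SE 0.08, adjusted p 0.041), and the adjusted p was 0.061 with the slide as a block. Of 41 other cadherins 21 were tested, 8 above and 13 below 0, and none was called. Their smallest p belonged to the desmosomal cadherin Dsg1a (0.64, adjusted p 0.055) and to Cdh2, the N-cadherin of Sertoli and germ cell junctions (-0.34, adjusted p 0.071).

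Among 27 genes listed as possible regulators of promoter choice or chromatin of the clusters, 25 were tested, 10 above and 15 below 0. Whether each of them acts on the clusters in testis was not tested. Dnmt3l, a cofactor of DNA methyltransferases in male germ cells, was called higher, with 3821, 3581 and 3588 in knockout testes, against 2356, 2708 and 2638 in wild-type testes. Its log2 difference was 0.51 (SE 0.07, adjusted p 0.041), or 0.074 as the adjusted p once slide was a block. Ctcf, the main binder at protocadherin promoters, differed by 0.0046 (adjusted p 0.97). Of 18 signalling and processing partners 17 were tested and none was called. Those of smallest p were Ncstn, a subunit of the protease that cleaves protocadherin tails, at -0.20 (adjusted p 0.14), and Wasf1, a subunit of the actin regulator bound by some protocadherins, at 0.21 (adjusted p 0.16).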

How the data were processed

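The deposited scanner files hold the intensity of every spot. Per the file headers they came from Feature Extraction 10.7.3.1, which had already subtracted background from the processed signal. Detection and outlier flags and positions (mm9) were used as deposited. The submitters deposited log2 values too. Their columns had the same median (7.72), and once sorted they differed from the first column by at most 0.0013. Such near-equal columns are what quantile normalization gives, so this alternative and quantile normalization are not separate checks. The columns correlated with the log2 processed signals at r above 0.999, and served as an alternative only. No step that made them is stated in the sources used here.

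Control and outlier-flagged spots (86 to 159 per array) were left out. From the log2 processed signals the 75th percentile of each array was subtracted, and the result was fitted in limma 3.58.1 (R 4.3.3, lmFit and eBayes). Probes detected on every unflagged array of at least 1 genotype, with at least 2 values in each, were tested (28306), each on its own, with Benjamini-Hochberg adjustment over all of them. A probe was called at an adjusted p under 0.05. Each list gene was read from its tested probe of highest mean level, and a list's summed signal covers its tested genes. The design text gives n as mice, so p-values measure the spread between animals, whose number limits the precision. The steps were also run on simulated data.

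The members and lists were chosen with earlier results of these data known. Values are given in full for called members, the 5 highest and 5 lowest differences, and the shared-exon probes. Shared exons were assigned from the accessions the files list for a probe, named through a GRCm38.p6 RefSeq gene table. Alternatives covered scaling, background correction, filters, probe rules, the variance model, slide and replicate blocks, left-out arrays and thresholds.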

Additional observations from a re-analysis of the deposited data

How the results depend on the processing

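The counts below are of clustered protocadherins called higher and lower, then of all probes called higher and lower, against 1 and 0 and 132 and 161 in the reported fit. They were 2 and 0, with 249 and 243, after quantile normalization, and 2 and 0, with 248 and 237, in the deposited log2 table. Normexp gave 1 and 0, with 250 and 173. They were 0 and 0, with 0 and 5, without a filter on dim probes, and 0 and 0, with 35 and 56, when 2 arrays of a genotype sufficed. With detection required on all 6 arrays they were 2 and 2, with 282 and 284, and with the brightest probe of a gene 2 and 1, with 230 and 237. A variance trend with robust fitting gave 3 and 1, with 844 and 685, and array weights 2 and 2, with 783 and 645. At an adjusted p under 0.1 they were 4 and 3, with 1146 and 1119, and with a fold of at least 1.5 added 1 and 0, with 37 and 45. With the replicate number as a block no member was called, with 0 and 3 over all probes. Same-numbered arrays of the 2 genotypes deviated with correlations of -0.05, -0.03 and 0.14, so the numbers were not taken as pairs. With the slide as a block no member was called (11 and 20 over all probes), nor on slide 1 alone, an alternative chosen after seeing the data (3 and 18). Leaving out 1 array at a time gave 0 to 1 members higher, 0 to 1 lower, and 0 to 441 and 2 to 331 over all probes. The 24 members detected on all arrays of a genotype became 37 with the software's looser detection flag. The members' median stayed within 0.07 of 0. Besides Pcdhb12, some members were called in a few alternatives. These were Pcdhb14 (5 of 21), Pcdhb4 (4 of 21), Pcdhac2 probe 3 (3 of 19), and Pcdhga9 probes 3 (1 of 19) and 4 (1 of 20). Signs turned for the second probe of Pcdhga4 (0.030 with array weights, and -0.10 to 0.060 with 1 array left out) and, with 1 array left out, for the second probe of Pcdhb17 (-0.18 to 0.79), Pcdhb21 (-0.031 to 0.065) and Pcdha9 (-0.14 to 0.0067). The cause of these changes was not tested. Signals near background limit the dim beta probes.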
